A study of Rattus norvegicus with 6 samples.

Results

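The genes described here encode the proteins that form a blood clot (coagulation), keep the clot in bounds and dissolve it again (fibrinolysis). The list holds 34 gene names, and its members are the entries of the deposited expression table whose symbol equals a name on the list. Of the 34 names, 33 had an entry among the 19616 genes of the table, and Kng1, the gene of kininogen, had none. By textbook knowledge of where the proteins are made, 21 of the 33 genes are liver-made, chiefly by hepatocytes, and 12 are made mainly outside hepatocytes, by endothelial, stromal or myeloid cells.

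Clotting starts when tissue factor, a membrane protein of cells outside the bloodstream, binds factor VII, or when the contact system is activated on a surface. A chain of proteases with their cofactors then turns prothrombin into thrombin, which cleaves fibrinogen to fibrin, and factor XIII crosslinks the fibrin. Antithrombin, the protein C pathway and tissue factor pathway inhibitor restrain the chain, and plasmin, made from plasminogen by its activators, degrades fibrin. Most of these proteins circulate in plasma and come from the liver, so their output is a classical measure of hepatocyte function, whereas the vessel-wall proteins are made where they act.

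The FL group (fibrosis, rats FL2, FL5 and FL12) consisted of male SD rats injected intraperitoneally with CCl4, a solvent that injures hepatocytes, mixed 1:1 with olive oil at 2 mL per kg body weight, 2 times per week over 5 weeks. The CL group (normal, rats CL5, CL6 and CL7) consisted of male SD rats that received olive oil alone in an equal volume. The age of the rats is not given in the sources used here. Total RNA of each liver was depleted of ribosomal RNA and sequenced as 1 library per rat, with no replicate library from the same liver.

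Expression was given as FPKM, sequenced fragments scaled to transcript length and to the mapped fragments of each library, so that levels can be compared between genes of different length. The values of all genes summed to 309425, 340467 and 315259 FPKM in rats CL5, CL6 and CL7. In rats FL2, FL5 and FL12 the sums were 309226, 272350 and 272110 FPKM. The absolute number of reads behind a value is unknown. Errors of log2 differences join the spread between 3 rats with a prior variance set by the mean level. Hepatocyte markers were abundant in every library, with 10 of 10 present and albumin (Alb) the most abundant of them. Their summed level was 55069, 52436 and 53138 FPKM in the CL rats and 44900.3, 47312 and 46502 FPKM in the FL rats. Limma called 0 of 10, against 9.29% of all genes higher and 0.935% lower, and 1 was higher at an unadjusted p under 0.05 (31.5% of all genes). The FL rats lay below the CL rats without overlap in 4 of the 10, against 4.78% of all genes, and above them in 2, against 35.7%. The libraries hold RNA of whole liver tissue, so fewer cells of a type and less RNA per cell cannot be told apart.

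FL2 stood apart from the other FL rats in these genes. Of the 21 liver-made genes, 18 had their highest FL value in FL2, and 20 did after median scaling, which divides each rat by the typical ratio of its genes to the mean of all rats. FL2 lay above all 3 CL rats in 12 of the 21 genes and below them in 2, whereas FL5 lay below all CL rats in 15 and FL12 in 14. The median log2 distance of the liver-made genes from the CL mean was 0.20 in FL2, -0.24 in FL5 and -0.29 in FL12. After median scaling these distances were 0.05, -0.49 and -0.57. Among the 12 genes made mainly outside hepatocytes the order was the opposite, since 11 had their lowest FL value in FL2. These include Tfpi2, a tie at 0.42 FPKM in FL2 and FL12. The median log2 distance was 0.53 in FL2, 1.16 in FL5 and 1.10 in FL12 (0.39, 0.92 and 0.87 after median scaling).

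The liver-made and the other genes differed first in level. In every rat, 20 of the 21 liver-made genes lay above 20 FPKM, the exception being Serpina10, and all 12 genes made mainly outside hepatocytes lay below 8 FPKM. The median of the CL means was 173 FPKM for the liver-made genes and 0.932 FPKM for the others. Summed over the list, the liver-made genes reached 9672, 9062 and 9379.5 FPKM in the CL rats, and 16373, 7979 and 7764 FPKM in rats FL2, FL5 and FL12. The genes made outside hepatocytes summed to 13.7, 14.6 and 14.7 FPKM in the CL rats, and to 22.4, 33.7 and 31.3 FPKM in the FL rats, without overlap between the groups.

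All calls between the FL and CL livers fell on genes made mainly outside hepatocytes. The comparison of FL with CL livers used limma on log2(FPKM + 0.1) over the 14864 genes whose mean reached 0.1 FPKM, with Benjamini-Hochberg adjustment over all of them, and a gene was called when its adjusted p was under 0.05 and its fold change at least 2. All 33 members passed the filter. Of the 12 genes made mainly outside hepatocytes, 5 were called higher in the FL group (Plat, F3, Thbd, Plau and Vwf), against 9.29% of all genes tested. Of these 12, limma called 0 lower (0.935% of all genes), and 0 were lower at an unadjusted p under 0.05. Of the 21 liver-made genes, 0 were called in either direction by limma, and at an unadjusted p under 0.05 the count was 0 higher and 1 lower, against 4.04% of all genes for a lower level. A prior without trend also called 0 of the 21. Without the limit on the fold change, Tfpi and F2r joined the 5 called genes, which made 7 of 12 against 16.9% of all genes for a higher level, while the liver-made genes again gave 0 of 21, against 1.94% of all genes for a lower level. Unadjusted p-values under 0.05 were reached with a higher level by 10 of the 12, against 31.5% of all genes.

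The median of the log2 differences between FL and CL over the 14864 genes was 0.29 as deposited, 0.08 after median scaling and -0.04 after quantile normalization. Because 0.1 is added to each FPKM, low genes changed by more than their log2 difference says. The median log2 difference of the genes made mainly outside hepatocytes was 1.01, which is 0.72 above the median of all genes, and 11 of the 12 differences were positive. It was 0.80 with median scaling and 0.55 with quantile normalization. The median of the liver-made genes was -0.03, which is 0.32 below the median of all genes (-0.32), with 9 positive and 12 negative differences. All 21 liver-made differences lay below the median of all genes, between -0.40 (Klkb1) and 0.26 (F7), and so they did after median scaling, whereas after quantile normalization 10 of the 21 did. Without FL2 all 21 lay below it, between -0.63 (Klkb1) and 0.17 (F5), and the count was 20 without CL5 or CL6, 19 without CL7, 18 without FL12 and 16 without FL5. Their sign depended on the scaling, with a median of -0.26 after median scaling (1 positive, 20 negative) and of 0.03 after quantile normalization (11 positive, 10 negative). Median scaling moves all genes of a rat by nearly the same log2 amount, so signs near 0 turn with it whatever the gene. Of the 12 genes made outside hepatocytes, 11 had a larger difference than any liver-made gene (8 after quantile normalization), and the difference between the lists was not tested.

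The FL and CL rats did not overlap, with FL higher, in 9 of the 12 genes made mainly outside hepatocytes, against 35.7% of all genes tested. Among the liver-made genes 0 of 21 lay apart in that direction, and 1 (Pros1) lay apart with FL lower, against 4.78% of all genes. Without FL2, 7 of the 12 genes were called higher, against 12.3% of all genes in the same setting. There 3 of the 21 liver-made genes passed the adjusted p with a lower level in the FL group (Klkb1, Pros1 and Cpb2), none of them at 2-fold, against 2.28% of all genes. The count of the 12 called higher was 3 without CL5 (6.25% of all genes), 3 without CL6 (6.70%), 1 without CL7 (4.95%), 1 without FL5 (5.06%) and 2 without FL12 (6.50%). It was 1 with median scaling (5.56% of all genes), where Plat stayed called, and 0 with quantile normalization (3.05%).

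**Figure D1:**
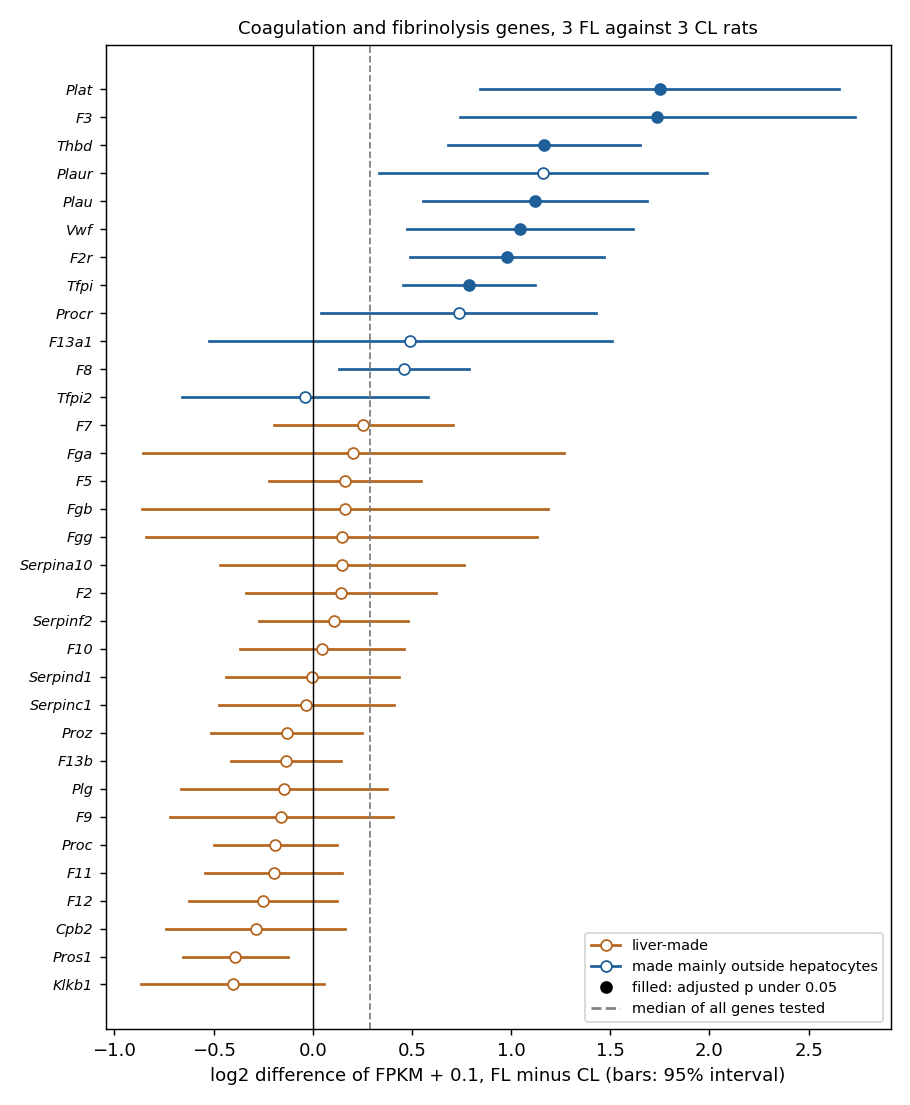
Log2 difference of FPKM + 0.1 between the FL and the CL group (x axis) for each of the 33 genes (y axis, ordered by the difference), with bars for limma's 95% confidence interval, orange for liver-made genes, blue for genes made mainly outside hepatocytes, filled circles for an adjusted p under 0.05 and a dashed line at the median of all genes tested (0.29). The 7 filled circles are all blue, Plat and F3 have the largest differences (1.75 and 1.74), and the liver-made genes lie between -0.40 and 0.26.

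The contact system is the surface-activated entry into coagulation, made of factor XII, prekallikrein (Klkb1), factor XI and kininogen. Of its 3 genes with an entry, 0 were called, against 9.29% of all genes higher and 0.935% lower. Their log2 differences lay between -0.40 and -0.20 (-0.63 and -0.30 without FL2). Klkb1, the zymogen of plasma kallikrein, stood at 137, 136 and 144 FPKM in rats CL5, CL6 and CL7 and at 144, 84.85 and 95.02 FPKM in rats FL2, FL5 and FL12. FL2 lay at the level of CL7, and FL5 and FL12 lay below every CL rat. The log2 difference was -0.40 (95% interval -0.86 to 0.06, adjusted p = 0.188). Without FL2 it was -0.63 with an adjusted p of 0.0137, and the adjusted p ranged from 0.0137 to 0.446 over the alternatives.

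F12, the protease that starts the contact pathway, stood at 182, 176 and 161 FPKM in the CL rats and at 174, 124 and 141 FPKM in rats FL2, FL5 and FL12. F11, the protease that it activates, stood at 81.6, 66.3 and 71.3 FPKM in the CL rats and at 73.0, 64.7 and 54.15 FPKM in the FL rats. In both genes FL2 lay within the range of the CL rats and FL5 and FL12 lay below it. Their log2 differences were -0.25 (interval -0.62 to 0.12) and -0.20 (interval -0.54 to 0.15), and without FL2 they were -0.38 and -0.30.

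Kininogen, the cofactor of the contact system and the source of bradykinin, could be read only through Kng1l1, a name that RefSeq lists as a synonym of Kng1. This entry (ENSRNOG00000030387, chromosome 11) was chosen after its values were seen and is counted in none of the totals. Kng1l1 stood at 293, 280.4 and 296 FPKM in rats CL5, CL6 and CL7 and at 3322, 386 and 1929.6 FPKM in rats FL2, FL5 and FL12. Every FL rat lay above every CL rat, FL2 and FL12 by far and FL5 by little. The log2 difference was 2.22 (SE 0.69, interval 0.64 to 3.80) with an adjusted p of 0.0576, which misses the limit. Without FL5 it was 3.13 with an adjusted p of 0.00557, without FL2 it was 1.57 with an adjusted p of 0.102, with a filter at a mean of 1 FPKM the adjusted p was 0.0497, and over the alternatives the adjusted p ranged from 0.00557 to 0.154. The rat has several kininogen genes of nearly identical sequence, so reads could have been split between them or dropped as not unique. Both the level of this entry and the kininogen that it stands for are uncertain.

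The vitamin K-dependent genes encode proteases and cofactors that need carboxylation by a vitamin K-dependent enzyme to bind membranes. The 7 members are prothrombin (F2), factors VII, IX and X, protein C, protein S and protein Z. Of the 7, 0 were called, against 9.29% of all genes higher and 0.935% lower. Their log2 differences lay between -0.39 and 0.26 (-0.44 and 0.06 without FL2). Pros1, the cofactor of activated protein C, stood at 57.3, 50.4 and 50.5 FPKM in rats CL5, CL6 and CL7 and at 42.65, 40.7 and 37.2 FPKM in rats FL2, FL5 and FL12. It was the liver-made gene whose groups did not overlap, and FL2 lay with the other FL rats. The log2 difference was -0.39 (SE 0.12, interval -0.66 to -0.12), and its adjusted p of 0.0502 missed the limit. The adjusted p was 0.0211 with median scaling, 0.0297 with quantile normalization and 0.0403 without FL2, and it ranged from 0.0211 to 0.14 over the alternatives.

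F2, the precursor of thrombin, stood at 634, 606 and 552 FPKM in the CL rats and at 746, 554 and 692 FPKM in rats FL2, FL5 and FL12. FL2 and FL12 lay above the CL rats, and FL5 lay among them. F9, the protease missing in haemophilia B, stood at 209.9, 191 and 230.35 FPKM in the CL rats and at 278, 150.5 and 159 FPKM in rats FL2, FL5 and FL12. F10, which cleaves prothrombin, stood at 103, 103 and 93.6 FPKM in the CL rats and at 131, 82.5 and 101 FPKM in the FL rats. In F9 the FL rats lay on both sides of the CL rats, with FL2 above and FL5 and FL12 below, and in F10 FL2 lay above, FL5 below and FL12 within the CL range.

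F7, the partner of tissue factor, stood at 20.1, 24.7 and 22.9 FPKM in the CL rats and at 35.25, 20.5 and 26.85 FPKM in rats FL2, FL5 and FL12, so that FL5 lay among the CL rats. Its log2 difference of 0.26 (interval -0.19 to 0.71) rested on FL2, since it was 0.06 without FL2, 0.45 without FL5 and 0.03 with median scaling. It was the highest of the liver-made genes with all rats, and without FL2 that place went to F5. Proc, the protease that inactivates factors V and VIII, stood at 115, 118 and 108 FPKM in the CL rats and at 113, 88.5 and 99.9 FPKM in the FL rats. Proz, a cofactor in the inhibition of factor X, stood at 58.0, 70.5 and 62.3 FPKM in the CL rats and at 72.7, 51.85 and 51.6 FPKM in the FL rats. FL5 and FL12 lay below every CL rat in both Proc and Proz, and FL2 lay within the CL range in Proc and above it in Proz.

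The procoagulant cofactors carry no protease activity of their own and speed the reactions. Of the 4 members 2, tissue factor and von Willebrand factor, were called higher, against 9.29% of all genes. F3 (ENSRNOG00000011800, chromosome 2), tissue factor, stood at 0.31, 0.09 and 0.19 FPKM in rats CL5, CL6 and CL7 and at 0.49, 0.88 and 1.35 FPKM in rats FL2, FL5 and FL12. All FL rats lay above all CL rats, with FL2 the nearest to them. F3 rose by 1.74 on the log2 scale (SE 0.43, interval 0.74 to 2.73, adjusted p = 0.0303). The call was lost without CL6 (adjusted p 0.0851), CL7 (0.0916), FL5 (0.0924) or FL12 (0.0904), with no filter (0.0502), with median scaling (0.0510), with quantile normalization (0.115) and with a pseudocount of 1, where the difference was 0.65, and over the alternatives the adjusted p ranged from 0.0163 to 0.115.

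Vwf (ENSRNOG00000019689, chromosome 4), which carries factor VIII and binds platelets to the vessel wall, is made by endothelial cells and megakaryocytes. It stood at 2.36, 2.59 and 2.94 FPKM in the CL rats and at 3.72, 7.43 and 6.06 FPKM in rats FL2, FL5 and FL12. The groups did not overlap, and FL2 lay nearest to the CL rats. Vwf rose by 1.05 (SE 0.25, adjusted p = 0.0256), and by 1.32 without FL2 (adjusted p = 0.00442). The call was lost on leaving out CL5 (adjusted p 0.0797), CL6 (0.0706), CL7 (0.0651), FL5 (0.0783) or FL12 (0.0764). It was also lost with a prior without trend (0.0504), median scaling (0.0574), quantile normalization (0.0989) and a pseudocount of 1, where the difference was 0.85, and over the alternatives the adjusted p ranged from 0.00442 to 0.0989.

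F8, the cofactor that speeds the activation of factor X and is missing in haemophilia A, is made by sinusoidal endothelial cells and stood at 2.45, 2.64 and 2.55 FPKM in the CL rats. Its values in FL2, FL5 and FL12 were 3.16, 3.73 and 3.77 FPKM, all above the CL rats. The log2 difference was 0.46 (interval 0.13 to 0.79) with an adjusted p of 0.0572, and it was 0.24 with median scaling and 0.09 with quantile normalization. The adjusted p was 0.033 without FL2, at a difference of 0.54, and 0.0429 with a filter at a mean of 1 FPKM, within a range of 0.033 to 0.678 over the alternatives. F5, the liver-made counterpart of factor VIII, stood at 50.5, 33.3 and 34.9 FPKM in the CL rats and at 43.1, 43.9 and 43.8 FPKM in the FL rats, which lay close together inside the range of the CL rats.

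The fibrinogen genes Fga, Fgb and Fgg encode the chains of the protein that becomes fibrin, and lie together on chromosome 2. Fga (ENSRNOG00000024848) stood at 2296, 2194 and 2396 FPKM in rats CL5, CL6 and CL7 and at 5122, 1965 and 1839 FPKM in rats FL2, FL5 and FL12. Fgb (ENSRNOG00000007092) stood at 1786, 1619 and 1758 FPKM in the CL rats and at 3803, 1456 and 1287 FPKM in the FL rats. Fgg (ENSRNOG00000025074) stood at 1613, 1374 and 1493 FPKM in the CL rats and at 3187, 1259 and 1119 FPKM in the FL rats. In all 3 genes FL2 lay above every CL rat and FL5 and FL12 lay below every CL rat.

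Relative to the CL mean, FL2 held 2.23 times the Fga, 2.21 times the Fgb and 2.13 times the Fgg level. The same ratios were 0.856, 0.846 and 0.843 in FL5 and 0.801, 0.748 and 0.749 in FL12. The FL rats thus fell on both sides of the CL group, and the log2 differences were 0.21 for Fga (SE 0.46, adjusted p = 0.773), 0.16 for Fgb and 0.15 for Fgg. Without FL2 they were -0.27, -0.33 and -0.33, with adjusted p-values of 0.369, 0.253 and 0.248, which are the lowest of the alternatives run (the highest were 0.987, 0.955 and 0.938).

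The ratios between the chains varied less from rat to rat than their levels. The ratio of Fga to Fgb was 1.29, 1.36 and 1.36 in the CL rats and 1.35, 1.35 and 1.43 in FL2, FL5 and FL12 (exact two-sided permutation test, p = 0.6, where 3 rats against 3 allow no p under 0.1). The ratio of Fgb to Fgg was 1.11, 1.18 and 1.18 in the CL rats and 1.19, 1.16 and 1.15 in the FL rats (exact permutation p = 0.8). These ratios spanned a narrow range although the summed fibrinogen level ran from 4245 FPKM in FL12 to 12112 FPKM in FL2. Fibrinogen made up 58.9%, 57.2% and 60.2% of the summed liver-made level in the CL rats, and 74.0%, 58.7% and 54.7% in FL2, FL5 and FL12. Without the fibrinogen genes, the liver-made sum was 3978, 3874 and 3733 FPKM in the CL rats and 4261, 3299 and 3519 FPKM in the FL rats, so that FL2 was again above and FL5 and FL12 below the CL group.

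FL2 held the highest FL value in 18 of the 21 liver-made genes, so this trait is not particular to the genes shown next. The windows of 250 bases upstream of the start of the fibrinogen genes and of kininogen are shown because the level of these genes (for kininogen that of Kng1l1, which is uncertain) was highest in the same rat, FL2. They were read from RefSeq (GRCr8), 5′ to 3′ on the strand of the gene, at chr2:170671919-170672168 (plus strand) for Fga, chr2:170700876-170701125 (minus strand) for Fgb, chr2:170652833-170653082 (plus strand) for Fgg and chr11:91340149-91340398 (minus strand) for Kng1. RefSeq lists 2 windows for Fga, of which the first listed is shown. Capitals mark CTGGGAA, the core of an IL-6 response element, and GTTAAT, a part of the HNF1 motif, each on either strand (GTTAAT on the other strand reads ATTAAC).
Fga: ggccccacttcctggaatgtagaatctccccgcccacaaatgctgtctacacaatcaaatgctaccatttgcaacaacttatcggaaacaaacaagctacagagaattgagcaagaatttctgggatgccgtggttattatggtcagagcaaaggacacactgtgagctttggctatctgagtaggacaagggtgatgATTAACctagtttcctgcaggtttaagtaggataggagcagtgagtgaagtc
Fgb: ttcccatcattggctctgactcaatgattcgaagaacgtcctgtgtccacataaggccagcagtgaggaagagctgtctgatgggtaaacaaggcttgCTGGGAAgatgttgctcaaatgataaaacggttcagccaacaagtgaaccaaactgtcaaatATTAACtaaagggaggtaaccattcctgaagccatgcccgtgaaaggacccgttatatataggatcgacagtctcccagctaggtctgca
Fgg: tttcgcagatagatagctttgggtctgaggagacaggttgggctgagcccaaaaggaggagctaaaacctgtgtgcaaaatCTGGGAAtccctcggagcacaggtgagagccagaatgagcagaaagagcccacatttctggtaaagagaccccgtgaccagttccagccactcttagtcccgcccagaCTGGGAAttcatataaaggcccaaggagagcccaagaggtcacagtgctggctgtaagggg
Kng1: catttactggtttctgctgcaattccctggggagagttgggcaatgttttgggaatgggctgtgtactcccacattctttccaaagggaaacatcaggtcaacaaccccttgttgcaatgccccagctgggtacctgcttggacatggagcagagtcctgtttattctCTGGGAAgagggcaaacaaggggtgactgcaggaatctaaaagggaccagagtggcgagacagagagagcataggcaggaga
The Fgg window holds CTGGGAA 2 times, with its first base at -169 and -61 from the start of the gene, the Fgb window holds it at -152 and the Kng1 window at -82. GTTAAT on the reverse strand lies at -52 in Fga and at -90 in Fgb. A match is a description of letters and says nothing of binding.

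RefSeq windows were found for 26 of the 34 names, 19 liver-made (Kng1 included) and 7 made mainly outside hepatocytes. CTGGGAA occurred in 6 of the 19 liver-made windows (31.6%) and in 1 of the 7 others, against 9.33% of 27457 windows of all genes. The 6 were F9, Fgb, Fgg, Kng1, Plg and Serpinc1, so the Fga window shown held none. Whether the motif goes with the level in FL2 was not tested. GTTAAT occurred in 6 of the 19 (31.6%), namely F2, F13b, Fga, Fgb, Plg and Proc, and in 1 of the 7, against 6.46% of all windows. The C/EBP core TTGCAA occurred in 2 of the 19 and 0 of the 7 (4.96% of all windows), and TATAAA in 1 of the 19 and 0 of the 7 (13.1%). The GC box GGGCGG was found in 4 of the 19 liver-made windows (21.1%) and in 3 of the 7 others (42.9%), against 32.4% of all windows. All motifs were searched on both strands, and 0 matches in the windows of the members overlapped each other.

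Factor XIII joins fibrin strands by crosslinks, and its A subunit, the enzyme, comes from macrophages and megakaryocytes, while the B subunit that carries it comes from hepatocytes. F13b stood at 102.5, 94.2 and 98.99 FPKM in rats CL5, CL6 and CL7 and at 95.8, 91.5 and 82.6 FPKM in rats FL2, FL5 and FL12, with FL2 among the CL rats. F13a1 was near the lower end of what was tested, at 0.17, 0.15 and 0.11 FPKM in the CL rats and 0.10, 0.28 and 0.42 FPKM in the FL rats. FL5 and FL12 lay above the CL rats and FL2 lay below them, and the log2 difference was 0.49 (interval -0.53 to 1.51). It was 0.88 without FL2, 0.19 without FL12, 0.14 with a pseudocount of 1 and -0.09 with quantile normalization, so neither its size nor its sign held over the alternatives.

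The plasma inhibitors of the list are serpins, which trap proteases in a covalent complex. Of the 4, 0 were called, against 9.29% of all genes higher and 0.935% lower. Their log2 differences lay between -0.03 and 0.15 (-0.165 and 0.13 without FL2). Serpinc1, antithrombin, which inhibits thrombin and factor X, stood at 453, 425 and 419 FPKM in rats CL5, CL6 and CL7 and at 508, 358 and 415 FPKM in rats FL2, FL5 and FL12. The FL rats lay on both sides of the CL rats. Its log2 difference was -0.03 (interval -0.47 to 0.41), and -0.165 without FL2.

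Serpind1, heparin cofactor II, was 1 of 2 liver-made genes in which FL2 was the lowest FL rat (the other was F5), with 238, 171 and 191 FPKM in the CL rats and 165, 205 and 228 FPKM in rats FL2, FL5 and FL12. Serpinf2, the inhibitor of plasmin, stood at 228, 230.4 and 205 FPKM in the CL rats and at 282, 215 and 222 FPKM in the FL rats. Serpina10, the protein Z-dependent inhibitor, stood at 1.16, 1.12 and 1.94 FPKM in the CL rats and at 1.71, 1.17 and 1.75 FPKM in the FL rats. The groups overlapped in all of these inhibitors.

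The vessel-wall regulators switch thrombin from a clotting to an anticlotting enzyme, block tissue factor or sense thrombin. Of 5 members, 1 was called higher (Thbd), against 9.29% of all genes. Tfpi and F2r passed the adjusted p with less than a 2-fold change. With Thbd that made 3 of 5 passing it with a higher level, against 16.9% of all genes. Thbd (ENSRNOG00000004687, chromosome 3), thrombomodulin, the endothelial receptor on which thrombin activates protein C, stood at 1.03, 0.76 and 1.18 FPKM in rats CL5, CL6 and CL7 and at 2.05, 2.39 and 2.53 FPKM in rats FL2, FL5 and FL12. The groups lay well apart and the FL rats lay close together. Thbd rose by 1.17 (SE 0.21, interval 0.68 to 1.65, adjusted p = 0.0105), and it was called with each of the 6 rats left out in turn. With median scaling the rise was 0.96 (adjusted p = 0.027) and with a pseudocount of 1 it was 0.74, both under 2-fold, and with quantile normalization 0.69 (adjusted p = 0.0746), within a range of 0.00932 to 0.0746 over the alternatives.

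Tfpi, tissue factor pathway inhibitor, had the smallest spread of CL values of the list relative to their mean, at 2.78, 2.77 and 2.72 FPKM, and stood at 4.14, 5.17 and 5.26 FPKM in rats FL2, FL5 and FL12. Every FL rat lay above every CL rat. Tfpi rose by 0.79 (SE 0.14, adjusted p = 0.0112), and the adjusted p ranged from 0.00669 to 0.0613 over the alternatives, with 0.0613 under quantile normalization, where the difference was 0.45. F2r, the main thrombin receptor of vascular and stellate cells, stood at 0.87, 1.28 and 1.28 FPKM in the CL rats and at 1.98, 2.50 and 2.52 FPKM in the FL rats, again without overlap. F2r rose by 0.98 (SE 0.21, adjusted p = 0.0191). It missed the adjusted p without CL5 (0.0546), CL7 (0.0516), FL5 (0.0691) or FL12 (0.0592) and with quantile normalization (0.115), where the difference was 0.52. It passed both limits without FL2 (1.09, adjusted p 0.0174), without CL6 (1.06, adjusted p 0.0423) and with a pseudocount of 0.01 (1.04, adjusted p 0.0201), within a range of 0.0171 to 0.115 over the alternatives.

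Procr, the endothelial receptor that presents protein C to thrombomodulin, stood at 0.54, 0.96 and 0.69 FPKM in the CL rats and at 0.86, 1.64 and 1.38 FPKM in the FL rats. FL2 lay below CL6, so the groups overlapped. Its log2 difference was 0.74 (interval 0.04 to 1.43, adjusted p = 0.124), and without FL2 it was 0.98 with an adjusted p of 0.0432 (range 0.0432 to 0.673, the highest with quantile normalization at a difference of 0.19). Tfpi2, a relative of Tfpi found in the extracellular matrix, stood at 0.38, 0.42 and 0.57 FPKM in the CL rats and at 0.42, 0.47 and 0.42 FPKM in the FL rats. It was the member made mainly outside hepatocytes whose log2 difference was negative, -0.04 (interval -0.66 to 0.58).

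Of the 5 fibrinolysis genes, 2 were called higher, against 9.29% of all genes, and both are plasminogen activators. Plat (ENSRNOG00000019018, chromosome 16), tissue plasminogen activator, which cleaves plasminogen on the surface of fibrin, stood at 0.46, 1.38 and 0.78 FPKM in rats CL5, CL6 and CL7 and at 1.89, 3.57 and 3.69 FPKM in rats FL2, FL5 and FL12. The groups did not overlap, with FL2 and CL6 nearest to each other. Plat rose by 1.75 (SE 0.39, interval 0.84 to 2.65, adjusted p = 0.0215). The call was lost without CL5 (adjusted p 0.0579), CL7 (0.0755), FL5 (0.0788) or FL12 (0.0698) and with quantile normalization (0.0622), and over the alternatives the adjusted p ranged from 0.0147 to 0.0788.

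Plau (ENSRNOG00000010516, chromosome 15), urokinase, the activator that works at cell surfaces, stood at 2.03, 1.14 and 1.31 FPKM in the CL rats and at 2.99, 4.07 and 2.87 FPKM in rats FL2, FL5 and FL12. All FL rats lay above CL5, the highest CL rat, and here FL12 was the lowest FL rat. Plau rose by 1.12 (SE 0.24, adjusted p = 0.0198). The call was lost without CL6 (adjusted p 0.0619), CL7 (0.0774) or FL5 (0.0721), with median scaling (0.0507), with quantile normalization (0.117) and with a pseudocount of 1, where the difference was 0.80, within a range of 0.0157 to 0.117 over the alternatives. Plaur, the receptor that holds urokinase at the cell surface, stood at 0.35, 0.37 and 0.42 FPKM in the CL rats and at 0.55, 1.56 and 1.04 FPKM in the FL rats. The groups did not overlap, but the FL rats were spread widely and the adjusted p was 0.0573 at a log2 difference of 1.16 (interval 0.34 to 1.99). Without FL2 the difference was 1.52 with an adjusted p of 0.0116, which passes both limits (range 0.0116 to 0.276). With a pseudocount of 1 it was 0.54 and with quantile normalization 0.58.

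The plasma side of fibrinolysis is liver-made. Plg, plasminogen, the precursor of plasmin, stood at 1039.65, 1103 and 1032 FPKM in the CL rats and at 1074, 944 and 865 FPKM in rats FL2, FL5 and FL12. FL5 and FL12 lay below the CL rats and FL2 within them, and the log2 difference was -0.14 (interval -0.66 to 0.38), and -0.23 without FL2. Cpb2, which trims fibrin so that plasminogen binds less, stood at 268, 273 and 254 FPKM in the CL rats and at 283, 178 and 202 FPKM in the FL rats. It had FL2 above and FL5 and FL12 below every CL rat. Its log2 difference was -0.29 (interval -0.74 to 0.16, adjusted p = 0.324), and without FL2 it was -0.48 with an adjusted p of 0.0417 (range 0.0417 to 0.652). The level of plasminogen stayed far above that of its activators in every rat, with 865 FPKM or more against at most 4.07 FPKM for Plat and Plau.

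**Figure D2:**
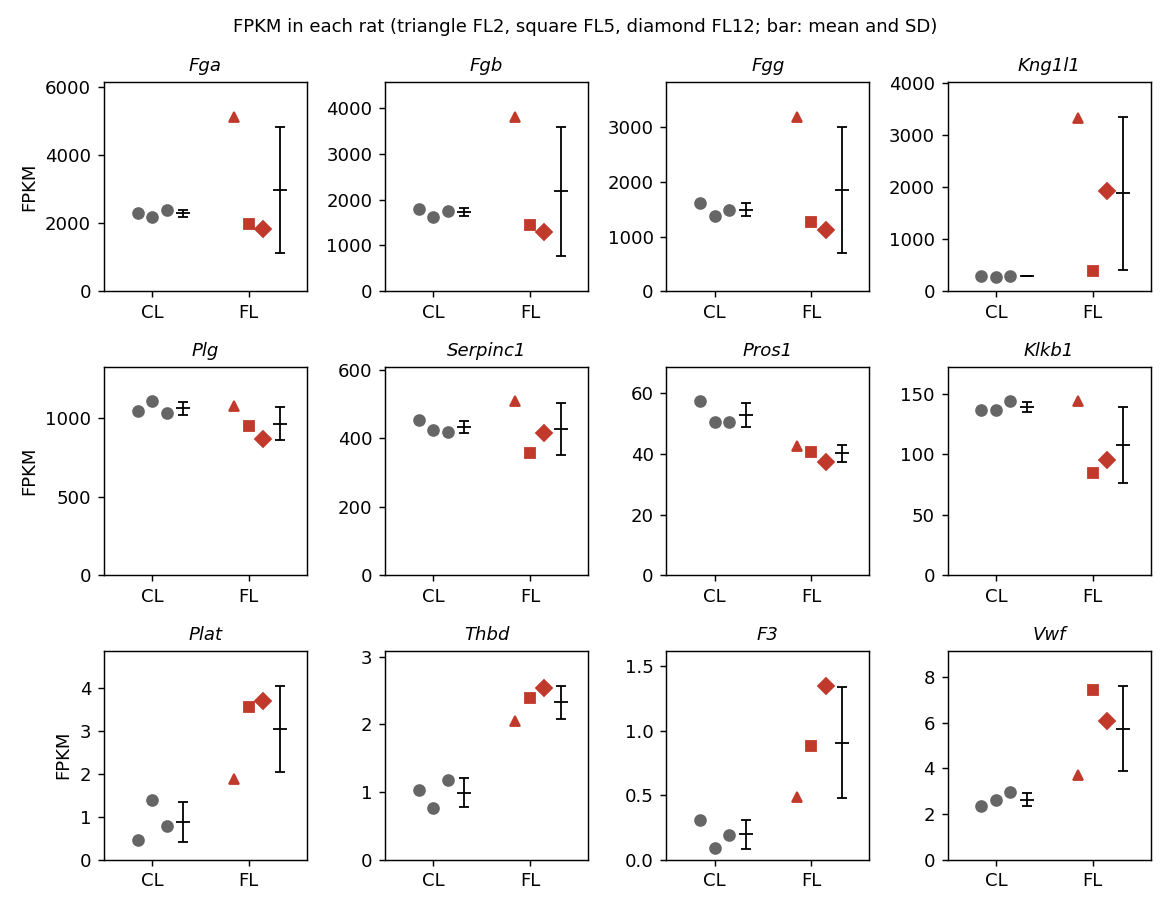
FPKM in each rat (y axis, starting at 0) for 12 genes in the CL (grey circles) and FL group (red, triangle for FL2, square for FL5, diamond for FL12), with a bar for the mean and SD of 3 rats. FL2 lies above every CL rat in Fga, Fgb and Fgg (5122, 3803 and 3187 FPKM) with FL5 and FL12 below, and all FL rats lie above all CL rats in Plat, Thbd, F3 and Vwf.

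Other genes of the pathway, such as the enzymes that modify clotting factors, further inhibitors and receptors, were read from a list of 29 names, of which 27 had an entry and 23 could be tested. Of the 23, limma called 5 higher, against 9.29% of all genes, and 0 lower, against 0.935% (1 was lower at an unadjusted p under 0.05). Their log2 differences ranged from -0.33 to 2.81, with a median of 0.26 that lay close to the 0.29 of all genes, 11 above it and 12 below. Among those called were proteins that assemble plasminogen and its activator at cell surfaces. S100a10, a plasminogen-binding partner of annexin A2, stood at 3.30, 4.26 and 2.79 FPKM in the CL rats and at 11.7, 14.1 and 16.0 FPKM in the FL rats, and Anxa2 stood at 4.48, 4.99 and 4.42 FPKM and at 8.64, 22.4 and 18.4 FPKM. S100a10 rose by 1.99 (SE 0.19, adjusted p = 0.00165) and Anxa2 by 1.70 (SE 0.31, adjusted p = 0.0115), and both were called under every alternative run. Plgrkt, a plasminogen receptor, stood at 0.67, 0.77 and 0.91 FPKM in the CL rats and at 1.62, 1.59 and 1.78 FPKM in the FL rats. Its rise of 1.0046 lay at the 2-fold limit (adjusted p = 0.0136), and was under 2-fold without CL5 (0.91), CL6 (0.998) or FL12 (0.958). It was also under 2-fold with median scaling (0.80) and with a pseudocount of 1 (0.58), and with quantile normalization it was 0.48 and missed the adjusted p (0.158, within a range of 0.0141 to 0.158 over the alternatives). Of the list, 3 genes were called higher without FL12 (6.50% of all genes), with a pseudocount of 1 (3.11%) and with quantile normalization (3.05%). A2m, a broad inhibitor of proteases, stood at 0.56, 0.59 and 0.59 FPKM in the CL rats and at 10.5, 2.46 and 3.86 FPKM in the FL rats, with FL2 the highest, and rose by 2.81 (SE 0.46, adjusted p = 0.00789).

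Secreted proteins of hepatocytes outside coagulation gave a comparison for the liver-made genes. Most of the hepatocyte markers given above are also in this list, so the counts of these lists share genes. Of 25, limma called 1 higher (Serpina7), against 9.29% of all genes, and 0 lower, against 0.935%. At an unadjusted p under 0.05 by limma 4 were lower, against 4.04% of all genes. The FL rats lay below the CL rats without overlap in 8 of the 25, against 4.78% of all genes, and above them in 3, against 35.7%. The median log2 difference was -0.22, which is -0.51 relative to all genes and lower than the -0.03 of the clotting genes, a difference that was not tested. Albumin, the most abundant, stood at 33392, 31431 and 31992 FPKM in rats CL5, CL6 and CL7 and at 24149, 25052 and 25209 FPKM in rats FL2, FL5 and FL12. The groups did not overlap in albumin, yet its log2 difference of -0.38 (0.49 with quantile normalization) had an SE of 0.98. Its adjusted p by limma was 0.804 (0.0789 to 0.952 over the alternatives). This SE lay far above the spread of the rats, whose SDs were 1010 FPKM in the CL and 572 FPKM in the FL group. An SE by limma also draws on the prior variance set by the mean level. FL2 was the highest FL rat in 17 of the 25 genes, compared with 18 of the 21 liver-made clotting genes, and of the 25 it lay above all CL rats in 11 and below all CL rats in 11. Serpina7, a carrier of thyroid hormone, rose from 1.81, 4.90 and 2.76 FPKM in the CL rats to 31.5, 15.7 and 13.2 FPKM in the FL rats (log2 difference 2.64, SE 0.41, adjusted p = 0.00655). Igf1, a growth factor, and Igfals, its carrier in plasma, passed the adjusted p with a lower level and under 2-fold. Igf1 fell by 0.91 (adjusted p = 0.0119, 0.00664 to 0.0522 over the alternatives, missed without CL7), and was called lower with median scaling, at -1.13, and without FL2, at -1.03. Of the 25, 1 was called lower with median scaling (1.22% of all genes) and 2 without FL2 (1.08%). Igfals fell by 0.48 (adjusted p = 0.0361, 0.0145 to 0.127 over the alternatives). Igfals missed the limit with a prior without trend (0.0735) and on leaving out any rat but FL2. Without FL2 the genes that passed with a lower level were 5 in place of 2, against 2.28% of all genes in place of 1.94%.

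Among markers of other liver cells, limma called stellate cell and macrophage markers higher and 0 of the endothelial ones, of which Stab2 and Tie1 passed the adjusted p with less than a 2-fold change. Of 9 stellate cell or myofibroblast markers tested, 6 were called higher, against 9.29% of all genes (8 without FL2, against 12.3%). Their median log2 difference was 2.28, which is 1.99 above the median of all genes. Their summed level was 82.2, 86.0 and 80.2 FPKM in rats CL5, CL6 and CL7, against 203, 545 and 498 FPKM in rats FL2, FL5 and FL12, and the most abundant was Col3a1. FL2 thus had the lowest sum of the FL rats, as it did for the genes made mainly outside hepatocytes. Of 8 macrophage markers 3 were called higher, against 9.29% of all genes, with a median log2 difference of 0.62 (0.34 above that of all genes). Their sums were 120.04, 120.0 and 125 FPKM in the CL rats and 259, 233 and 140.45 FPKM in the FL rats. Here FL2 had the highest sum, unlike in the genes made mainly outside hepatocytes, and the most abundant marker by group mean was Clec4f in the CL and Marco in the FL rats. Of 8 sinusoidal endothelial markers limma called 0 (2 were higher at an unadjusted p under 0.05), with sums of 108, 100.3 and 94.0 FPKM in the CL rats and 122, 95.45 and 107 FPKM in the FL rats, and Fcgr2b had the highest mean in both groups. Their median log2 difference was 0.07, which is -0.22 relative to all genes, and the sums of the groups overlapped. Stab2, a scavenger receptor, was higher by 0.75 in the FL group (adjusted p = 0.0143, 0.0124 to 0.0563 over the alternatives, missed without CL7). Of 6 vascular endothelial markers it called 0 (1 was called higher without FL2), and 5 were higher at an unadjusted p under 0.05, against 31.5% of all genes. In 5 of the 6 the FL rats lay above the CL rats without overlap, as in 35.7% of all genes, and the median log2 difference was 0.44 (0.08 with quantile normalization), which is 0.15 above that of all genes. Tie1, an endothelial receptor kinase, was higher by 0.62 (adjusted p = 0.0382, 0.0213 to 0.255 over the alternatives), and missed the limit with median scaling, with quantile normalization, with no filter, with a prior without trend and on leaving out any rat but FL2. The sums of the vascular markers were 19.5, 21.6 and 19.0 FPKM in the CL rats and 26.8, 29.95 and 26.2 FPKM in the FL rats, Cdh5 being the most abundant.

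Markers of bile duct and blood cells were read in the same way, against 9.29% of all genes called higher and 0.935% called lower with all rats. Without FL12, 6.50% of all genes were called higher, and without FL2, 1.08% were called lower. Of the platelet and megakaryocyte markers 6 had an entry, of which 2 could be tested and 1 was called higher, with sums of 4.13, 2.66 and 2.88 FPKM in the CL rats and 5.16, 6.82 and 7.72 FPKM in the FL rats. By group mean Itga2b was the most abundant in the CL and Pf4 in the FL rats, and Ppbp, Gp9, Gp6 and Treml1 were listed at 0 in some rats. Of 5 cholangiocyte markers 1 was called higher (Spp1, and 0 without CL7), with sums of 5.63, 10.5 and 6.25 FPKM and of 12.5, 68.3 and 41.5 FPKM. Epcam had the highest mean of them in the CL rats and Spp1 in the FL rats. Of these sums, Spp1 alone held 0.37, 2.81 and 0.74 FPKM in the CL rats and 7.34, 60.59 and 31.12 FPKM in the FL rats. The other 4 markers were not called, and their log2 differences lay between -0.82 and 1.07, of which 2 were negative. All 3 neutrophil markers tested were called higher, at sums of 0.2, 0.74 and 1.06 FPKM and of 4.35, 1.88 and 3.86 FPKM. The count was 1 of 3 with any of the 6 rats left out, with median scaling, a prior without trend or a pseudocount of 1. It was 1 of the 5 tested with no filter, 2 of 3 with a pseudocount of 0.01 and 0 with quantile normalization. S100a8 was the most abundant by the mean of either group, and Mpo and Elane were at 0 in some rats. Of 4 lymphocyte markers tested limma called 0 (1 was higher at an unadjusted p under 0.05, and 1 was called higher without FL12), with sums of 1.33, 1.40 and 1.95 FPKM and of 3.02, 3.04 and 1.51 FPKM, with the highest mean for Nkg7 in the CL and Cd79a in the FL rats and with Ms4a1 among those at 0 in some rats. Of 3 red blood cell markers it called 0 (1 was lower at an unadjusted p under 0.05, and 2 were called lower without FL2), with sums of 69.3, 107 and 71.7 FPKM and of 71.3, 34.4 and 37.0 FPKM, Hbb being the most abundant. The part of these cells in the levels of the coagulation and fibrinolysis genes was not tested.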

How the data were processed

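Ribosomal RNA-depleted libraries of 6 rat livers were analysed, 3 CL and 3 FL, with groups taken from the sample labels. After trimming with FASTX-Toolkit, the authors aligned reads by TopHat2 allowing 4 mismatches, and deposited uniquely mapped reads of each gene as FPKM. GRCh38 is the genome their methods and processing notes name, but identifiers are rat Ensembl ones, with an annotation release not given in the sources used here. No scaling between rats is stated. The read counts behind the authors' own edgeR comparison were not used here, and 2 further value columns of the table were not used because no sample carries their names. Pairs of rats shared 0.866% to 2.54% of identical values, so no library was a copy of another.

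FPKM are not counts, so limma 3.58.1 (R 4.3.3) with trend (a prior variance set by the mean level) was fitted to log2(FPKM + 0.1) over all genes whose mean reached 0.1 FPKM, and p-values were adjusted over all of them by the Benjamini-Hochberg method. Standard errors, intervals and p-values are limma's, which join the spread between these rats with the prior variance set by the mean level. Ratios of fibrinogen chains were compared by exact permutation over rats. Python 3.11.15 with numpy 2.4.6, pandas 2.3.3 and matplotlib 3.10.9 was used for the rest, and the procedure was tested on simulated data.

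Genes were named by a rule that took all 34 members, every called gene of the other pathway genes, every called and the most abundant of the secreted hepatocyte proteins, and the most abundant gene and those at 0 of each marker list, of which 2 genes are not reported here. Igf1, Igfals, Spp1, Stab2, Tie1, Kng1l1 and the markers most abundant in 1 group alone fall outside it, were chosen after their values were seen, and so were the genes named in the last part of the closing section. The members and lists were chosen with earlier results of these data known. Tried besides were pseudocounts of 0.01 and 1, no filter and a filter at a mean of 1 FPKM, median scaling (9201 genes above 1 FPKM in every rat), quantile normalization, a robust prior, a prior without trend, calls without a limit on the fold change, and leaving out each rat. Promoter windows and the synonym of Kng1 came from RefSeq tables (GRCr8).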

Additional observations from a re-analysis of the deposited data

How the results depend on the processing

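The count of 5 genes called higher was 1 with median scaling, 1 with a pseudocount of 1 (where 3.11% of all genes were called higher) and 0 with quantile normalization, and leaving out each rat gave 1 to 7, while no limit on the fold change gave 7. The remaining alternatives gave 4 to 6, where 6.32% to 9.60% of all genes were called higher. The count called lower was 0 under every alternative run. Of all genes, 0.484% to 1.55% were called lower there (1.94% with no limit on the fold change). At such shares a count of 0 among 33 genes says little. The median log2 difference of the liver-made genes (-0.03) was -0.26 with median scaling, and leaving out each rat gave -0.27 (without FL2) to 0.00295 (without FL5). The median of the genes made mainly outside hepatocytes (1.01) was 0.64 with a pseudocount of 1 and 0.55 with quantile normalization, and leaving out each rat gave 0.84 to 1.14. The causes of these shifts were not tested, and leaving out a rat also lowers the number of rats. The sign of the difference changed in 8 of the 33 genes with median scaling (which moves all genes nearly alike), in 5 with quantile normalization and in 6 without FL2. None of these genes passed the adjusted p in either setting. No paired analysis was run, because the authors divided the rats into groups at random and the labels name no pairs. The number of reads behind a value is unknown, so how far depth limits the precision of low genes such as F3 and F13a1 could not be computed.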

Other observations

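Several other plasma proteins showed FL2 far above the other FL rats. Among 23 other genes of the pathway, 4 (A2m, Fgl1, Gas6 and Serping1) stood more than 2 times as high in FL2 as in both FL5 and FL12. So did 3 of the 25 secreted hepatocyte proteins (Hp, Hpx and Serpina7). The share of all genes that did so was not computed. In A2m, Gas6 and Serpina7 all FL rats lay above all CL rats. Haptoglobin (Hp), which binds free haemoglobin, stood at 2572, 2317 and 2458 FPKM in rats CL5, CL6 and CL7 and at 7491, 2498 and 3546 FPKM in rats FL2, FL5 and FL12. Hemopexin (Hpx), which binds haem, stood at 2077, 2044 and 2259 FPKM in the CL rats and at 7001, 1899 and 2759 FPKM in the FL rats. In both FL2 was the highest of all rats, and the cause was not tested. Of the 25 secreted proteins, FL2 lay above all CL rats in 11 and below all CL rats in 11. Fgl1, a fibrinogen-like protein secreted by hepatocytes, stood at 256, 207 and 238 FPKM in the CL rats and at 931, 192 and 418 FPKM in the FL rats. Serping1, the inhibitor of the contact system and of complement, stood at 227, 308 and 299 FPKM in the CL rats and at 586, 253 and 269 FPKM in the FL rats. The groups overlapped in Hp, Hpx, Fgl1 and Serping1. The adjusted p by limma was 0.309 for Hp, 0.394 for Hpx, 0.249 for Fgl1 and 0.523 for Serping1.

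The genes that serve the maturation of vitamin K-dependent factors were not called. Ggcx, the carboxylase of the vitamin K-dependent factors, stood at 11.1, 7.75 and 9.54 FPKM in the CL rats and at 10.01, 10.5 and 9.02 FPKM in the FL rats. Vkorc1, which recycles vitamin K, stood at 13.3, 14.3 and 13.2 FPKM in the CL rats and at 15.4, 11.1 and 14.1 FPKM in the FL rats. The groups overlapped in both genes, with log2 differences of 0.07 (interval -0.28 to 0.42) and -0.02 (interval -0.35 to 0.31).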
